A study of Mus musculus with 4 samples.

Results

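The CHD8 peaks described here are those whose summit lay in 4 stretches of 1 Mb: chromosome 7 from 52 to 53 Mb, chromosome 10 from 80 to 81 Mb, chromosome 8 from 87 to 88 Mb and chromosome 11 from 97 to 98 Mb of the mouse build mm9. They numbered 275 of the 22706 peaks of replicate 1 and 351 of the 31002 peaks of replicate 2, and formed 224 of the 17867 regions shared by the replicates. CHD8 was mapped by chromatin immunoprecipitation and sequencing (ChIP-seq) in mouse ES cells grown in 2i medium. A 3xFLAG tag stood at the C-terminus of CHD8 on both alleles in all of these cells, and the protein was recovered with the antibody ANTI-FLAG M2. There were 2 ChIP samples of this single condition and 2 inputs without antibody; ChIP of untagged cells was not analysed here. The labels do not say whether the replicates were separate cultures, so their spread may be technical.

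CHD8 is an ATP-dependent remodeller of the CHD family, enzymes that slide or evict nucleosomes, and mutations in its human counterpart are linked to autism. Remodellers of this family are found at active promoters and enhancers, and stretches of a chromosome that hold many active genes can carry many such sites. The 2i medium contains inhibitors of MEK and GSK3 and holds ES cells in a naive pluripotent state. Whether the 4 windows are rich in genes was not checked, because no annotation of mm9 was used here, and peaks are named by position with no gene or sequence.

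The windows were chosen because they held many shared regions in these same lists, so their peak numbers are a description and carry no test. Of the 2650 stretches of 1 Mb, they stood at ranks 2 to 5 by shared regions, with 63 on chromosome 7, 55 on chromosome 10, 54 on chromosome 8 and 52 on chromosome 11. The fullest stretch lay on chromosome 13 from 23 to 24 Mb with 64 regions, and the next below the 4 windows lay on chromosome 5 from 115 to 116 Mb with 47. The median stretch held 4.0. By single lists the windows stood at ranks 2, 4, 5 and 3 in replicate 1 and at ranks 1, 4, 7 and 5 in replicate 2, in the order 7, 10, 8 and 11.

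CHD8 peaks covered several percent of the sequence in every window. The summed peak width was 6.48% of the chromosome 7 window in replicate 1 and 9.36% in replicate 2. On chromosome 10 it was 5.40% and 7.29%, on chromosome 8 it was 5.93% and 7.95%, and on chromosome 11 it was 4.65% and 6.47%. The 8 adjoining stretches of 1 Mb, called flanks below, were covered at 2.33% and 3.35%. All 4 windows therefore lay above the mean of the flanks in both replicates, and single flanks reached 5.14% and 6.72% on the left of the chromosome 10 window. Per Mb the windows held 68.75 peaks in replicate 1 and 87.75 in replicate 2, against 31.75 and 41.75 in the flanks, a ratio of 2.13 ± 0.045 (SD, n = 2 replicates).

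**Figure D1:**
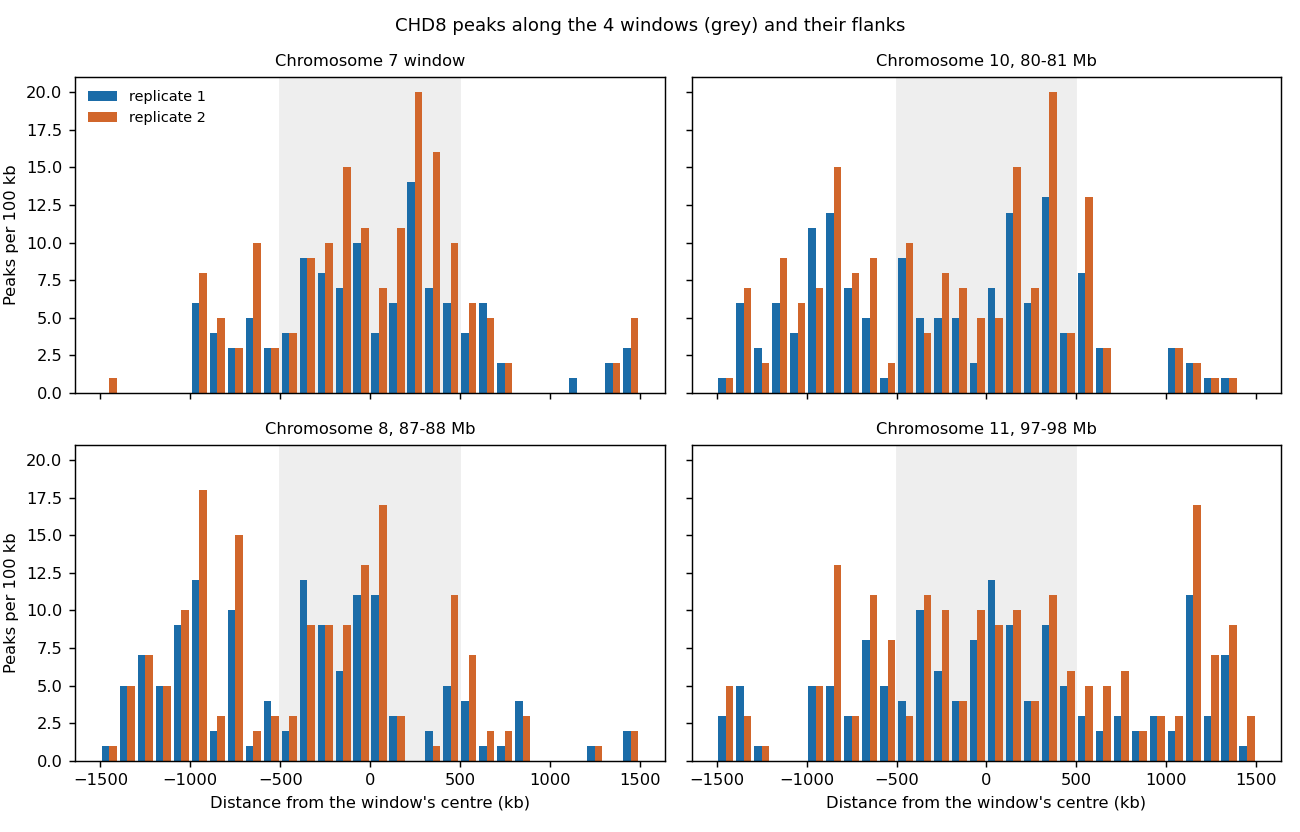
Number of CHD8 peaks (y axis, peaks per 100 kb, by summit) against the distance from the centre of each window (x axis, kb), with replicate 1 in blue, replicate 2 in orange and the window in grey. The chromosome 7 window stands between sparse flanks, while dense peaks continue to the left of the chromosome 10 and chromosome 8 windows and on both sides of the chromosome 11 window.

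The chromosome 7 window stood apart from its surroundings more sharply than the other windows did. Replicate 1 had 75 peaks there and replicate 2 had 113; the left flank held 21 and 30, and the right flank held 18 and 20. The window was thus 3.85 times as dense as the mean of its flanks in replicate 1 and 4.52 times in replicate 2. On chromosome 10 the ratios were 1.84 and 1.91, on chromosome 8 they were 1.77 and 1.74, and on chromosome 11 they were 1.97 and 1.43. Among peaks with a fold of 5 or more the chromosome 11 ratio was 1.10 in replicate 1 and 1.40 in replicate 2. The lowest chromosome 7 ratio lay above the highest ratio of the other windows in both lists.

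Peaks on chromosome 7 were spread over the whole window. Each of its 10 bins of 100 kb held between 4 and 10 shared regions, whereas 5 of 10 bins were empty in each flank. In the left flank all 15 regions lay in the 500 kb next to the window, and in the right flank 10 of 14 lay in the first 300 kb. Regions thus continued past both borders of the window, and empty bins followed on each side. In the right flank 4 more regions lay beyond the empty bins. The fullest bin, 52700001 to 52800000, held 10 shared regions, 14 peaks of replicate 1 and 20 peaks of replicate 2.

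The strongest CHD8 region of the chromosome 7 window lay at 52103711 to 52106526. Here, a region is as strong as its lower standing by −log10 q in either list, and the fold enrichment is the authors' ratio of the summit over the caller's background. Its fold enrichments were 22.0 in replicate 1 and 22.4 in replicate 2, a mean of 22.2 ± 0.31 (SD, n = 2), with 113 and 124 reads over the summit. It ranked 68 and 69 in the whole lists. The second region, 52147043 to 52148684, had folds of 20.05 and 24.7 and lay only 3.34 kb from the fifth, 52150563 to 52151975, with folds of 17.6 and 16.6. These neighbours were separate peaks in both lists, and both were among the best 1.9% of peaks. The third region, 52649952 to 52652146, had 18.4 and 21.2, and the fourth, 52316909 to 52318430, had 14.4 and 21.3. The last of these had the largest difference between the replicates of the 5, with summits of 83 and 118 reads only 18 bp apart. The widest region, 52382227 to 52385373, spanned 3147 bp with folds of 14.02 and 16.0.

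The chromosome 10 window was the right end of a longer dense stretch. It held 68 and 85 peaks, its left flank 56 and 66, and its right flank 18 and 23. When a frame of 1 Mb was moved to the left in steps of 100 kb, it held 48 to 53 shared regions down to a shift of 900 kb, against 55 at the window itself. Moved to the right by 500 kb it held 42, and by 1000 kb it held 16. The left flank ranked 12 among all stretches by shared regions, level with the left flank of the chromosome 8 window.

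Within the chromosome 10 window the regions were unevenly spread over the bins. The 3 fullest of its 10 bins held 28 of the 55 regions or 50.9%, and single bins held 2 to 10. This share was 53.7% on chromosome 8, 44.2% on chromosome 11 and 41.3% on chromosome 7, and 51.2% in the left flank of the chromosome 10 window. The fullest bins were 80600001 to 80700000 and 80800001 to 80900000, with 10 regions each; the second held 13 peaks of replicate 1 and 20 of replicate 2. The longest run of regions with less than 10 kb between neighbouring summits had 7 members over 24.97 kb, from 80630352 to 80655318. This run included the third strongest region of the window, 80638819 to 80640569, with folds of 15.3 and 17.4.

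No region of the chromosome 10 window was among the best 1% in both lists. The strongest, 80598965 to 80601524, had folds of 15.6 and 18.6, a mean of 17.1 ± 2.16 (SD, n = 2), and 90 and 91 reads. The second, 80499527 to 80500664, had 77 reads in replicate 1 and 102 in replicate 2, but its fold was 15.8 in the first and 12.3 in the second. Control coverage there was 1.15 times the genome-wide background in replicate 1 and 1.96 times in replicate 2, so fold and read number ran in opposite directions. The fourth region, 80260077 to 80262323, had folds of 13.3 and 16.2, and the fifth, 80203922 to 80205345, had 12.6 and 12.6. The widest region, 80038697 to 80042089, was 3393 bp wide but of moderate strength, with folds of 6.87 and 7.73.

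The chromosome 8 window also formed the right part of a dense stretch, and it contained a long empty interval. It held 61 and 75 peaks, its left flank 56 and 69, and its right flank 13 and 17. A frame moved 300 kb to the left held 59 shared regions, more than the 54 of the window, and one moved 500 kb to the right held 27. The left 500 kb of the window held 35 regions and the right 500 kb held 19. Between the regions that end at 87643988 and begin at 87822530 there was no peak in either replicate, which left 180.0 kb between neighbouring summits. It was the widest gap of any of the 4 windows. The right border of this empty interval was the third strongest region of the window, 87822530 to 87825036, with folds of 12.5 and 16.9.

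The strongest chromosome 8 region, 87603715 to 87605673, had folds of 20.6 and 21.7, a mean of 21.2 ± 0.74 (SD, n = 2), and 117 and 128 reads. Its summits lay 1 bp apart, as did those of the second region, 87470648 to 87471692. That second region had folds of 18.1 and 15.4 and was the clearest case of a lower level in replicate 2 among the 20 best regions, with 105 and 87 reads. The fourth, 87380578 to 87381658, had folds of 10.9 and 12.1, and the fifth, 87550289 to 87552099, had 11.1 and 14.9. The widest region of all 4 windows lay here, at 87183762 to 87189707, and spanned 5946 bp. Replicate 1 split it into 2 peaks and replicate 2 held it as a single peak, with folds of 8.10 and 12.5 at the best summits, 10 bp apart. It closed a run of 7 regions over 32.9 kb, from 87155766 to 87188716. Control coverage at its best summits was 2.26 and 1.57 times the background.

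The chromosome 11 window lay within a dense stretch that continued on both sides, and its peaks were weaker than those of the other windows. It held 71 and 78 peaks, its left flank 35 and 49, and its right flank 37 and 60. A frame moved 300 kb to the left held 51 shared regions and one moved 300 kb to the right held 44, against 52 at the window. Each of its 10 bins held 2 to 8 regions. The median fold enrichment of its peaks was 4.05 in replicate 1 and 4.61 in replicate 2, below the whole-list medians of 4.51 and 4.71. Median peak widths were 394 bp in replicate 1, against 495 bp in the whole list, and 530.5 bp in replicate 2, against 514 bp. In width the window thus lay below the list in replicate 1 and not in replicate 2.

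The best chromosome 11 region was within the range of the best regions of the other windows. The strongest, 97642133 to 97644541, had folds of 20.9 and 21.8, a mean of 21.4 ± 0.63 (SD, n = 2), 92 and 107 reads, and summits 5 bp apart. The second, 97744348 to 97746835, had 18.5 and 21.2, and the fourth, 97605564 to 97606954, had 14.2 and 17.6. The third, 97459313 to 97461553, had 12.1 and 18.1, the largest rise in depth-normalised reads from replicate 1 to replicate 2 among the 20 best regions, with 70 and 100 reads. The fifth, 97047665 to 97051243, was 3579 bp wide with folds of 14.4 and 13.2. The widest region, 97520719 to 97525830, spanned 5112 bp; replicate 1 held it as 4 peaks and replicate 2 as a single peak, so the lists differ in the number of peaks over the same stretch.

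The borders of the windows are round numbers, and their distance to the nearest peaks varied. On chromosome 7 the nearest outside peaks lay 35.6 and 35.8 kb from the left border, and 39.1 and 39.2 kb from the right. The peaks nearest to a border lay 1.345 to 29.2 kb inside it and 1.57 to 61.6 kb outside it. Their fold enrichments were 3.23 to 14.2 inside and 2.57 to 9.14 outside.

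The typical peak differed little in strength between windows and flanks, while the upper quartile was higher in the pooled windows. The median fold enrichment in the windows was 4.71 in replicate 1 and 5.12 in replicate 2, and in the flanks it was 4.73 and 4.94. The difference of −0.02 and 0.17 had a mean of 0.078 ± 0.14 (SD, n = 2), so it did not exceed the spread between replicates. The upper quartile was 7.49 and 7.94 in the windows against 6.45 and 7.13 in the flanks. The highest single folds lay in the flanks, with 25.2 and 26.9 against 22.0 and 24.7 in the windows. Among peaks with a fold of 5 or more, the median was higher in the windows by 1.16 and 0.81. The density of these peaks over the flanks was 2.21 and 2.16 times, close to the 2.165 and 2.102 times of all peaks.

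**Figure D2:**
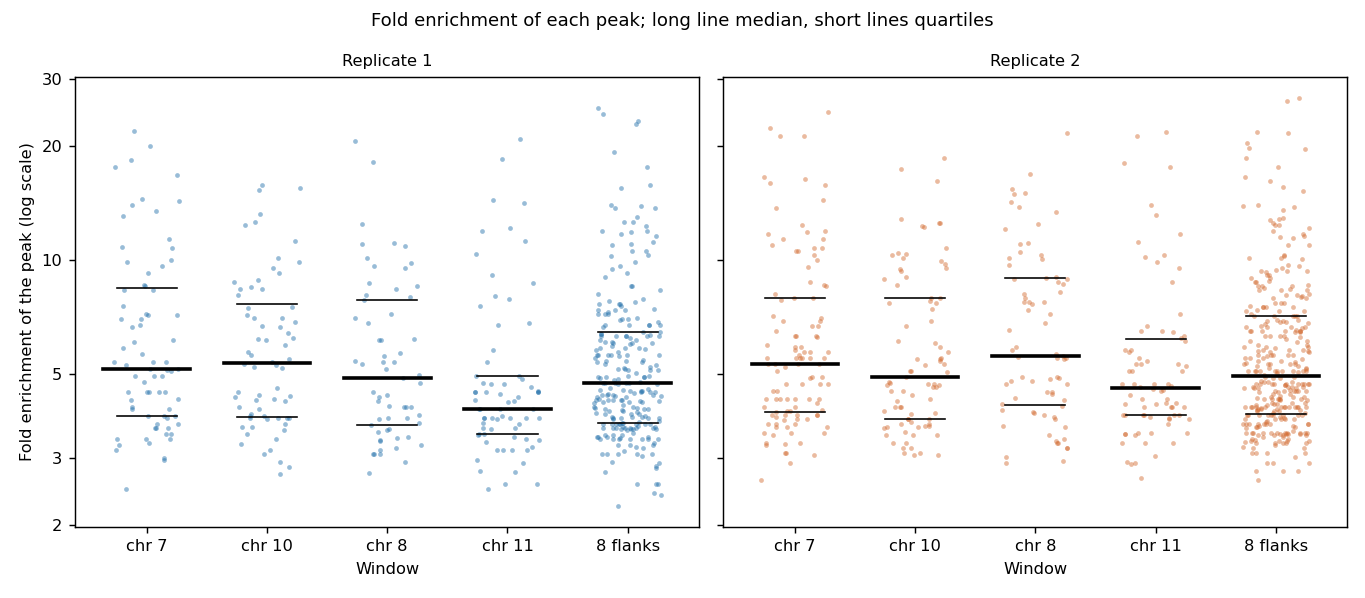
Fold enrichment of every peak (y axis, log scale) in the 4 windows and, pooled, in the 8 flanks (x axis), for replicate 1 on the left and replicate 2 on the right; points are peaks, long lines medians and short lines quartiles. The chromosome 11 window has the lowest median in both replicates, 4.05 and 4.61, and the upper quartiles of the other windows lie above that of the flanks.

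Peaks of the best 10% of their list, by −log10 q, made up 18.5% of the window peaks in replicate 1 (51 of 275, 95% Wilson interval 14.4 to 23.6) and 20.8% in replicate 2 (73 of 351, 16.9 to 25.3). In the flanks the shares were 13.0% (9.40 to 17.7) and 12.9% (9.70 to 16.9). Wilson intervals here cover counting error only, and neighbouring peaks are not independent. The window share was 1.43 times the flank share in replicate 1 and 1.62 times in replicate 2. By window the shares were 24.0% and 21.2% on chromosome 7, 16.2% in replicate 1 and 17 of 85 peaks in replicate 2 on chromosome 10, 21.3% and 26.7% on chromosome 8, and 12.7% and 15.4% on chromosome 11. The order of chromosomes 7 and 8 differed between the replicates, and chromosome 11 was lowest in both. Its intervals, 6.81 to 22.4 and 9.03 to 24.99, reached below the 10% of the whole list. The chromosome 7 and 8 windows stood above both of their own flanks in both replicates. The chromosome 10 window stood below its flanks in replicate 1, with 17.9% left and 16.7% right. It stood between them in replicate 2, with 18.2% and 21.7%. The chromosome 11 window stood between its flanks in replicate 1, with 2.86% and 21.6%. It stood above them in replicate 2, with 6.12% and 13.3%. Strength and width came from the same lists that chose the windows, so these shares are given without a test.

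Window peaks were also wider. Peaks over 1 kb made up 33.5% of the window peaks in replicate 1 and 33.6% in replicate 2, 24.4% and 29.0% of the flank peaks, and 22.3% and 25.5% of the whole lists. The chromosome 8 window had the largest shares, 42.6% and 46.7%, and the chromosome 11 window the smallest, 21.1% and 24.4%. Only the chromosome 8 window stood above both of its own flanks in both replicates. The chromosome 10 window, with 35.3% and 37.6%, lay below its left flank, with 37.5% and 42.4%. The chromosome 11 window lay below its right flank, with 32.4% and 28.3%. In replicate 2 the chromosome 7 window, with 28.3%, lay below its right flank, with 35.0%. Across the 224 shared regions of the windows, width and summed summit reads had a Spearman's rho of 0.79, against 0.72 over all shared regions. Both measures come from the same reads, and the correlation is across regions.

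Most window peaks of replicate 1 were found again in replicate 2. With an overlap of 1 bp or more, 256 of 275 had a partner, 93.1% (Wilson interval 89.5 to 95.5). In the other direction, 235 of 351 replicate 2 peaks or 67.0% (61.9 to 71.7) had one. In the flanks the shares were 92.5% (88.6 to 95.2) and 65.6% (60.3 to 70.5), and in the whole lists 89.1% and 60.9%. The interval of the windows contained the share of the flanks in both replicates. With 50% reciprocal overlap the window shares were 64.7% and 50.7%.

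The windows differed in how many peaks replicate 2 added. On chromosome 7 replicate 2 held 1.51 times as many peaks as replicate 1, on chromosome 10 it held 1.25 times, on chromosome 8 it held 1.23 times and on chromosome 11 it held 1.10 times, while the whole lists had a ratio of 1.37. Among single flanks the ratio ran from 1.11 to 1.62, about as widely as among the windows. Chromosome 7 had 47 of its 113 replicate 2 peaks in that replicate alone, against 12134 of 31002 in the whole list. A partner was found for 58.4% (49.2 to 67.1) of its replicate 2 peaks, and this interval contained the 60.9% of the whole list. On chromosome 8, 76.0% (65.2 to 84.3) of the replicate 2 peaks and all 61 replicate 1 peaks had a partner. These intervals of chromosomes 7 and 8 overlapped.

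Peaks found in a single replicate were weak in every window, as they were in the whole lists. Over the whole lists those of replicate 2 alone had a median fold of 3.91 and a median width of 304 bp. Those of replicate 1 alone had 3.60 and 253 bp. The 116 window peaks of replicate 2 alone had a median fold of 3.91 and were 291.5 bp wide in the median; 34 lay within 1 kb of a replicate 1 peak. The strongest, 52805224 to 52806458 on chromosome 7, had a fold of 6.32, 30 reads and a width of 1235 bp, at a distance of 7358 bp from any replicate 1 peak. On chromosome 10 the strongest was 80269887 to 80270368 with a fold of 5.32. On chromosome 8 it was 87339600 to 87339947 with 4.85, and on chromosome 11 it was 97845397 to 97845893 with 4.71. None of these 4 ranked better than 8546 in replicate 2. The 19 window peaks of replicate 1 alone reached a fold of 5.18, at 52381072 to 52381404 on chromosome 7, which lay 12 bp from a replicate 2 peak. Those that ranked best on chromosomes 10 and 11, 80596988 to 80597254 and 97847129 to 97847548, had folds of 4.27 and 4.05 and lay 440 and 248 bp from a replicate 2 peak.

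At the shared regions the replicates ranked the windows' sites alike. Spearman's rho of the summit read numbers was 0.91 over the 224 regions, 0.92 on chromosome 7, 0.89 on chromosome 10, 0.91 on chromosome 8 and 0.83 on chromosome 11, against 0.84 over all 17867 regions. These are correlations across regions of the same pair of libraries. The ChIP libraries held 3.44 and 3.56 reads per window of 200 bp. After division by these depths, 205 of the 224 regions had more summit reads in replicate 2, 91.5%, and the ratio had a median of 1.25. Over all shared regions 88.4% had more, also with a median of 1.25, so the windows followed the shift between the lists. By window it was 1.23, 1.21, 1.29 and 1.27 on chromosomes 7, 10, 8 and 11, and 1.26 in the flanks, with an SD of the log2 ratio of 0.27 in the windows. At the 20 best regions the ratios ran from 0.80 to 1.38 with a median of 1.17, and 17 were higher in replicate 2.

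**Figure D3:**
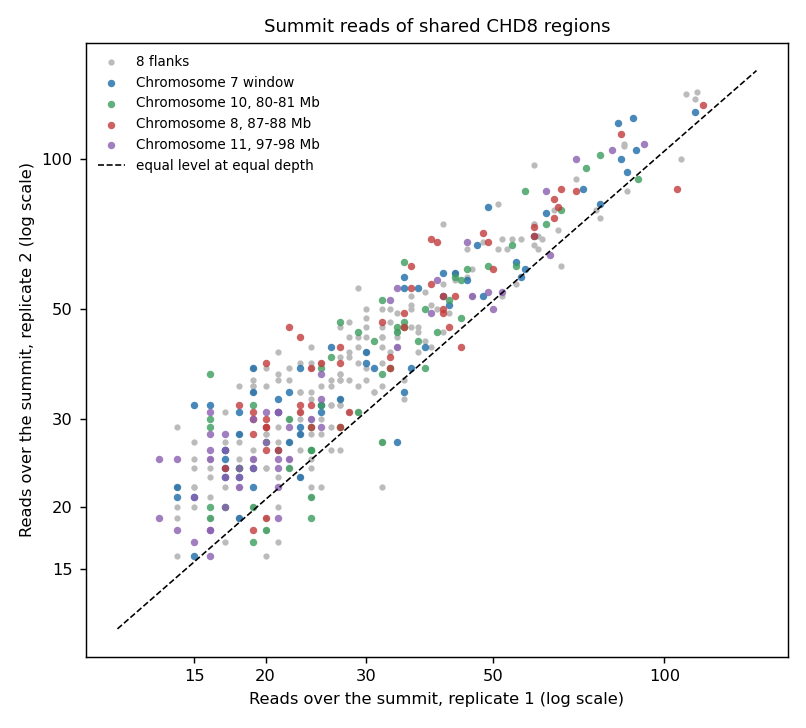
Reads over the summit of each shared region in replicate 1 (x axis, log scale) and replicate 2 (y axis, log scale), coloured by window, with the regions of the 8 flanks in grey. Most points lie above the dashed line, which marks an equal level at equal ChIP depth, and regions of all 4 windows follow the same band.

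Summits were placed alike by the replicates. The median distance between the summits of a shared region was 93 bp on chromosome 7, 75 bp on chromosome 10, 94.5 bp on chromosome 8 and 73.5 bp on chromosome 11, against 95 bp over all shared regions. At the 20 best regions it was 35.5 bp, and 17 of them had summits within 100 bp. Of the 224 regions, 84.4% held a single peak of each replicate, close to the 84.3% of all shared regions, and 35 held more than 1 peak in at least 1 replicate.

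Neighbouring CHD8 regions lay about 10 kb apart in 3 of the 4 windows. The median distance between neighbouring summits was 9.77 kb on chromosome 7, 9.09 kb on chromosome 8 and 9.46 kb on chromosome 11, and it was 15.7 kb on chromosome 10. It was 17.7 kb in the flanks and 34.8 kb over the whole genome. A short median gap follows from a high number of regions in 1 Mb, so it is no separate property of the windows. Chromosome 10, with 55 regions, nevertheless had a longer median gap than chromosomes 8 and 11, which held 54 and 52. On chromosome 10 only 18 of 54 gaps were under 10 kb, against 29 of 53 on chromosome 8 and 26 of 51 on chromosome 11. On chromosome 7, 32 of 62 gaps were under 10 kb.

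**Figure D4:**
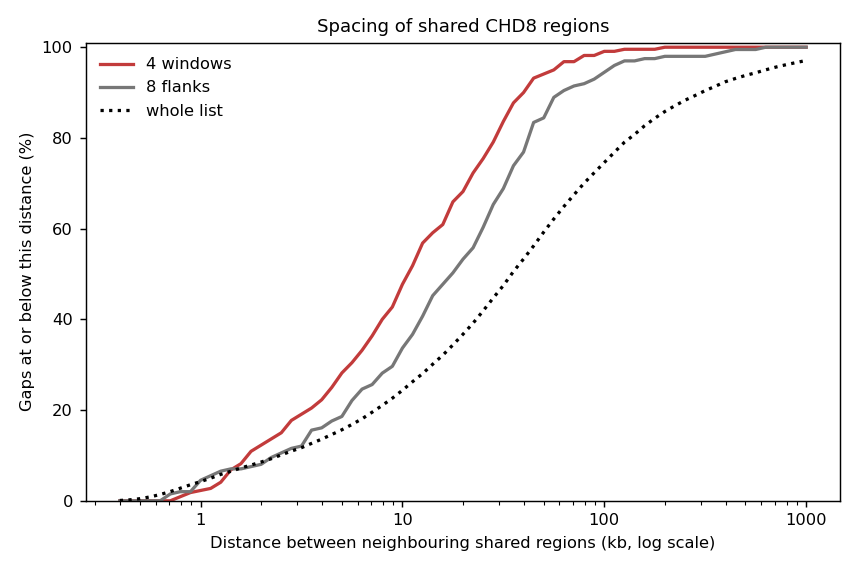
Share of gaps at or below a given distance (y axis, %) against the distance between neighbouring shared regions (x axis, kb, log scale) in the 4 windows, the 8 flanks and the whole list. At 10 kb the windows stand at 47.7% and the flanks at 33.7%, and at 2 kb they stand at 12.3% and 8.04%.

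Regions stood in runs more often than alone in all 4 windows. With runs defined by less than 10 kb between neighbouring summits, 76.2% of the regions on chromosome 7 were in runs, 74.1% on chromosome 8, 76.9% on chromosome 11 and 52.7% on chromosome 10. The share was 70.1% over the windows and 51.7% over the flanks. Like the median gap, it depends on the number of regions in 1 Mb, so it is no separate property of the windows. The left flank of the chromosome 8 window had 65.1% and that of the chromosome 10 window 55.8%, both above the chromosome 10 window. The longest run on chromosome 7 had 7 regions over 32.5 kb, from 52689675 to 52722188. On chromosome 11 no run had more than 4 regions, and 5 runs had 4. The regions of that window were thus gathered in many short runs, and those of chromosomes 7, 8 and 10 included a longer one.

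The closest neighbours were a fraction of a peak width apart. On chromosome 11 the regions 97140588 to 97141816 and 97141952 to 97142566 had summits 765.5 bp apart and 135 bp between their edges. On chromosome 10, 80052738 to 80053249 and 80053401 to 80053990 had summits 794 bp apart. On chromosomes 7 and 8 the closest summits were 1310 and 1296.5 bp apart, with 111 and 86 bp between edges. Whether these are distinct sites was not tested. The widest gaps were 92.7 kb on chromosome 7, with 3 replicate 2 peaks inside it, 76.2 kb on chromosome 10, with 1 replicate 2 peak inside, and 92.4 kb on chromosome 11, with 1 peak of each replicate inside. Gaps under 2 kb made up 12.3% of the windows' gaps, 8.04% of the flanks' and 8.56% of all.

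The chromosome 8 window differed from the others in the control. Control coverage is the caller's local background at a summit, taken here to come from the input libraries, and cannot fall below the genome-wide value. It exceeded that value by more than 1% at 60 of 61 chromosome 8 window peaks in replicate 1, 98.4% (Wilson interval 91.3 to 99.7), and at 73 of 75 in replicate 2, 97.3% (90.8 to 99.3). On chromosome 7 it did so at 39 of 75 peaks in replicate 1 and at 38.9% in replicate 2, on chromosome 10 at 76.5% and 62.4%, and on chromosome 11 at 49.3% and 48.7%. The median control coverage was 1.51 and 1.30 times the background on chromosome 8, and on chromosome 7 it was 1.02 times in replicate 1 and at the background in replicate 2.

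High control coverage was also seen at most chromosome 8 peaks outside the window. Outside the window and its flanks, 92.7% of the chromosome 8 peaks in replicate 1 (91.1 to 93.9) and 90.1% in replicate 2 (88.7 to 91.4) exceeded the background, with medians of 1.41 and 1.32 times. Over the other autosomes the shares were 43.5% (42.8 to 44.2) and 38.0% (37.5 to 38.6), with medians at the background. Chromosome 8 ranked 1 of all chromosomes in both replicates, and chromosome 11 followed with 50.4% and 44.2%. The intervals of chromosome 8 and of the other autosomes were far apart. This pattern was noticed after the values were seen. On chromosome 10 the window shares of 76.5% and 62.4% stood above those of its whole chromosome, 43.2% and 37.2%. Its flanks did so too, with 85.7% and 59.1% on the left and 55.6% and 60.9% on the right.

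**Figure D5:**
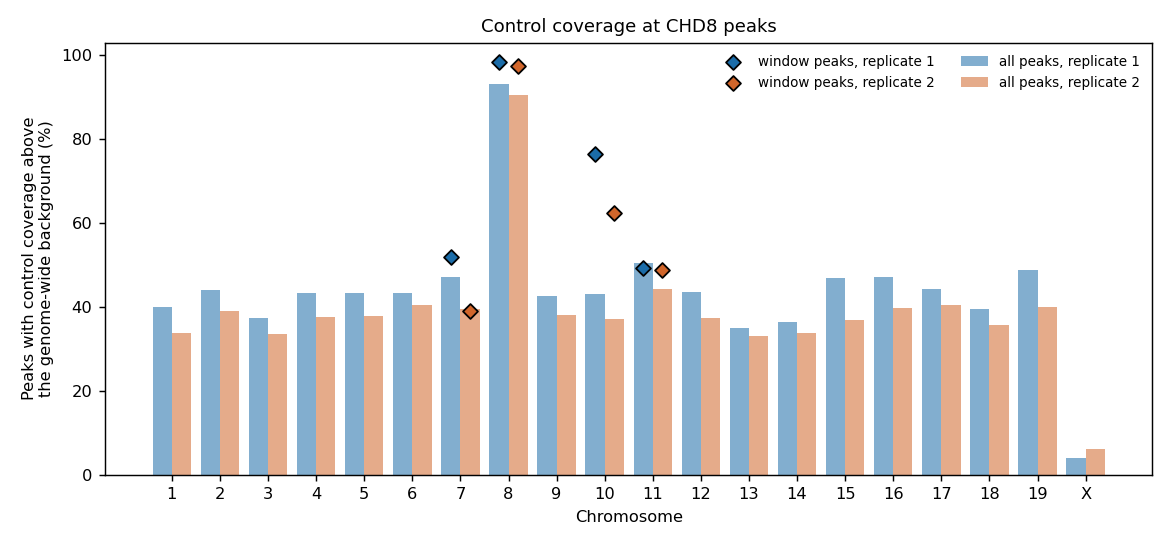
Share of peaks with control coverage above the genome-wide background (y axis, %) by chromosome (x axis), with bars for all peaks and diamonds for the peaks of the 4 windows, in blue for replicate 1 and orange for replicate 2. Chromosome 8 stands above 90% in both replicates, with its window at 98.4% and 97.3%, while the other autosomes stand between 33.0% and 50.4%.

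Of the 4 windows, that of chromosome 8 had the highest median reads and the highest median control coverage. The median summit of its window had 32 reads in each replicate, above 23 and 26 on chromosome 7, 25 and 26 on chromosome 10, and 19 and 23.5 on chromosome 11. Fold enrichments did not follow the same order. The chromosome 8 median of 4.88 in replicate 1 lay below those of chromosome 7 with 5.18 and chromosome 10 with 5.36, and its 5.601 in replicate 2 lay above 5.32 and 4.91. The chromosome 8 window was thus highest in both replicates by reads and in replicate 2 alone by fold. Chromosome 8 peaks outside the window and its flanks had median control coverage of 1.41 and 1.32 times the background. In the window it was 1.51 and 1.30 times. Those outside peaks had median summits of 24 and 28 reads and median folds of 4.25 and 4.68, all below the window. The part of the raised control in the higher read numbers and in the choice of this window was not tested. The number of copies of chromosome 8 in these cells, which would enter ChIP and control reads alike, was not measured here. Peaks at 2 times the background or more numbered 7 and 2 over the 4 windows, and without them the windows held 268 and 349 peaks.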

How the data were processed

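Per the submitters' processing notes, Bowtie2 2.1.0, MACS2 2.1.1 and the build mm9 were used; for the control of each ChIP sample and further filters the sources used here give nothing. The deposited lists hold, per sample, the peak position, summit, the authors' fold enrichment (a linear ratio), −log10 p and −log10 q, and a score that is 10 times −log10 q cut to a whole number. Fold enrichments were compared between sites within a list. The scales of the lists differ, and a mean ± SD of a site's folds over both lists includes that difference, because the genome-wide background was 3.44 reads in replicate 1 and 2.55 in replicate 2. All fold values are the authors'.

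The reads over each summit and the local control background were solved from fold and p with the caller's formulas (a whole number of reads, ChIP scaled by 0.714 in replicate 2); the misfit in log10 p stayed under 0.002 for all peaks. The procedure was tested on lists simulated with the same formulas. Such a test cannot show whether the caller used these formulas. Peaks were placed by summit. Peaks overlapping by 1 bp or more and holding both replicates formed shared regions, placed by the midpoint of their best summits. Inputs entered only through the control background, which was assumed to come from them.

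The windows, the members and the settings were chosen with earlier results of these data known. Named regions are, per window, the 5 strongest and the widest shared region, the closest and the most distant neighbours, the fullest bin of 100 kb and the best peak of each replicate without a partner; genes could be named only with an annotation of mm9, which was not used here. With 2 replicates of 1 condition, and windows chosen by their peaks, no test was made. Positions are 1-based. Alternatives were higher thresholds, lists of equal length, 50% reciprocal overlap, shifted windows, merged peaks, removal of peaks with high control coverage and each replicate alone. Python 3.11.15, numpy 2.4.6, pandas 2.3.3, scipy 1.17.1 and matplotlib 3.10.9 were used.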

Additional observations from a re-analysis of the deposited data

How the results depend on the processing

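The density of the windows over the flanks stayed between 1.94 and 2.19 under every alternative run. It was 2.04 in the higher-scoring 50% of each list, 2.18 at a fold of 5 or more, 1.94 and 2.19 with windows moved 100 kb to the left and right, and 1.99 with peaks under 1 kb apart merged, each further from 2.13 than the SD between replicates of 0.045. The mean number of window peaks, 313, fell to 177.5 and 152 under the first 2 of these, which hold fewer peaks by construction, and their median gaps between shared regions were 19.2 and 19.6 kb in place of 10.98 kb. That gap was 12.2 kb with 50% reciprocal overlap and 13.5 kb with merged peaks. The mean share of window peaks with a partner was 57.7% in place of 80.02% with 50% reciprocal overlap. The difference in median fold between windows and flanks, 0.078, was 0.80 in the higher-scoring 50%, 0.98 at a fold of 5 or more and −0.10 with windows moved to the right, so its sign depends on the borders. The excess of peaks from the best 10% of the list, 1.52 times, was 1.34 times with windows moved to the right. The values of each replicate alone are the range between the replicates given above. At a fold of 5 or more the density over the flanks was 4.80, 1.798, 2.16 and 1.25 times on chromosomes 7, 10, 8 and 11, in place of 4.18, 1.87, 1.76 and 1.70. The alternatives for single windows and for the best 10% were chosen after seeing the data. No paired analysis was possible because only ChIP samples of a single condition have a peak list. Median summits of 24 and 27 reads in the windows limit what single peaks can show.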
